A study of Drosophila melanogaster with 3 samples.

Results

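The genes for the proteins of the large cytoplasmic ribosomal subunit in Drosophila melanogaster carry symbols made of RpL and a digit, or RpLP and a digit for the stalk proteins. By that rule 54 of the 13945 protein-coding genes of the BDGP 6.54 annotation were members. Occupancy at them was read from peak lists of chromatin immunoprecipitation with sequencing (ChIP-seq) against a GFP-tagged CG4328, a LIM-homeodomain transcription factor. The material was 1 group of 3 biological replicates of whole embryos of both sexes, aged 8 to 24 h, from a transgenic line that stably expresses CG4328 with GFP at its C-terminus, precipitated with an antibody against GFP, although the labels' antibody entry names CG4328 itself. Neither the promoter that drives the transgene nor its cells of expression is given in the labels, and no control library or untagged line was analysed here, so nothing below is a difference between conditions. For the same reason, binding of the tagged protein and unspecific signal at these starts cannot be told apart here. Whole embryos mix all cell types, so occupancy in few cells and weak occupancy in many cells cannot be told apart.

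The large subunit joins amino acids into protein: it holds the peptidyl transferase centre, the exit tunnel through which the chain leaves, and a flexible stalk that recruits elongation factors. Its protein genes are among the most actively transcribed in every growing cell and must be produced in matched amounts. In Drosophila many of them start transcription at a run of pyrimidines, called the TCT motif, in place of the usual initiator, and their promoters often hold the DNA replication-related element (DRE, TATCGATA, known to be bound by Dref) or Motif 1 (GGTCACACT, known to be bound by M1BP).

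The starts of 11 RpL genes are shown because the results turn on summits placed close to them. Each line runs 5′ to 3′ from 80 bases before the start to the 20th base of the transcript, so the start is the base after the first 80, in the release of the genome that the dm6 lists use, with the sequence credited to RefSeq. Capitals mark TATCGATA, GGTCACACT or its complement, and CTTT whose first base lies within 5 bases of the start; capitals would also mark CAGCTG and CAGCNCTG, which none of these 11 holds. RpL7, RpL13A, RpL34b, RpL23A and RpL14 are among the members with the highest peaks, RpLP0 encodes the base of the stalk, RpL27 holds both the DRE and CTTT, RpL10Ab and RpL10Aa are a gene pair of which the first had a peak, and RpL15 and RpL40 had none. The set was chosen after the sequences had been seen.
RpL7, chr2L:10200924-10201023, plus strand: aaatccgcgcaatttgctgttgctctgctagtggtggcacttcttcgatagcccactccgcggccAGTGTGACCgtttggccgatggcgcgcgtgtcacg
RpL13A, chr3R:5624394-5624493, plus strand: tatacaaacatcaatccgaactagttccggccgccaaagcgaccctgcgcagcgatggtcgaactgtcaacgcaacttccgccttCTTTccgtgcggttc
RpL34b, chr3R:9401207-9401306, minus strand: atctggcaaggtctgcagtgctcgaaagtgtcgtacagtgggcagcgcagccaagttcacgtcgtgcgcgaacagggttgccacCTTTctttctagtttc
RpL23A, chr3L:1668635-1668734, minus strand: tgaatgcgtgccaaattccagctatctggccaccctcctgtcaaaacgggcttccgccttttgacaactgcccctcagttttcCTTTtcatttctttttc
RpL14, chr3L:8600926-8601025, plus strand: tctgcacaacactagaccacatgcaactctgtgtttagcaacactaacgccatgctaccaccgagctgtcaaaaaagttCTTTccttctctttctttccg
RpLP0, chr3L:22076012-22076111, plus strand: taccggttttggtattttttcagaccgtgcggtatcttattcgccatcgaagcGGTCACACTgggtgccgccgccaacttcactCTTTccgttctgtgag
RpL27, chr3R:25685032-25685131, minus strand: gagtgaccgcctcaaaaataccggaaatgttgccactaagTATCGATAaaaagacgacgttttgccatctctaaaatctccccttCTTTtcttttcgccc
RpL10Ab, chr3L:11822771-11822870, plus strand: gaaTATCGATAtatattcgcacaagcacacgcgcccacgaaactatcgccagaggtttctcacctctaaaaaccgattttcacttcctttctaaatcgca
RpL10Aa, chr3R:15037286-15037385, plus strand: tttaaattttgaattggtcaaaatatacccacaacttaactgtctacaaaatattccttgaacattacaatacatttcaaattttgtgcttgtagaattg
RpL15, chr3L:27267176-27267275, plus strand: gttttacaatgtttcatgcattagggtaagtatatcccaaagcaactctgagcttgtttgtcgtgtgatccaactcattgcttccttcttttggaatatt
RpL40, chr2L:4227619-4227718, plus strand: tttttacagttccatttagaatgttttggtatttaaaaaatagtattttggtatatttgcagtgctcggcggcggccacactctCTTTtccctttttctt
The 5 genes with the highest peaks in this set held CTTT at the start except RpL7, which held Motif 1 instead, on the opposite strand. RpL10Aa and RpL15 held none of the marked motifs, and RpL40 held CTTT without having a peak.

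Peaks stood at most large-subunit genes. The authors' optimal list, cut by the irreproducible discovery rate (IDR), held 3688 peaks, and 41 of the 54 RpL genes (75.9%) were the gene with the nearest annotated start of at least 1 of them, whereas 18.8% of all protein-coding genes were. With the summit also required to lie within 500 bp of the start, all 41 remained, beside 12.9% of all genes. In the higher 1844 peaks of the list, 38 RpL genes were found, beside 10.9% of all genes. The best peak was supported by all 3 replicates, meaning that 1 bp or more of it was shared with one of the top 3688 peaks in every replicate list, at 32 RpL genes, beside 11.2% of all genes. In total 45 optimal peaks were nearest to an RpL gene, since RpL27A, RpL3, RpL6 and RpLP2 had 2 each.

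The replicates were then read on their own. Among the 3688 highest peaks of each replicate, those nearest to RpL genes named 40 members in replicate 1, 42 in replicate 2 and 32 in replicate 3. The corresponding shares of all genes were 18.5%, 18.3% and 18.8%, so replicate 3 named as many genes overall but fewer RpL genes. The 32 named in replicate 3 are not the same as the 32 supported by all 3 replicates. RpL15, without an optimal peak, was named, and RpL34a was not. A replicate 3 peak did overlap the optimal peak of RpL34a, but its summit was nearest to another gene. In the relaxed pooled list of 30000 peaks, which holds background as well as peaks, 48 RpL genes were named, beside 60.7% of all genes.

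Peaks were ranked within each list by the authors' signal value, rank 1 being the highest, because the scale of that value is not stated. Over the 41 RpL genes the best optimal peak had a median rank of 504, and ranks ran from 27 to 2694. Of these, 27 were among the highest 737 peaks. Over all protein-coding genes, the best peak was among them at 667 of the 2620 genes with an optimal peak. The overlapping replicate peaks had a median rank of 610 in replicate 1 (52 to 7058, n = 41), 469 in replicate 2 (45 to 2809, n = 41) and 428 in replicate 3 (18 to 1646, n = 32). Among RpL genes ranked in both libraries of a pair, the order was similar. Spearman's rho was 0.919 between replicates 1 and 2 (n = 41), 0.883 between 1 and 3 and 0.866 between 2 and 3 (n = 32 each). The values with replicate 3 leave out 9 RpL genes without an overlapping peak there. Across optimal peaks within 500 bp of a start of other genes, rho was 0.771 (n = 1897), 0.754 (n = 1585) and 0.654 (n = 1576), in that order. These are descriptions across genes or peaks of the same 3 libraries, in which the optimal list was itself called.

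**Figure D1:**
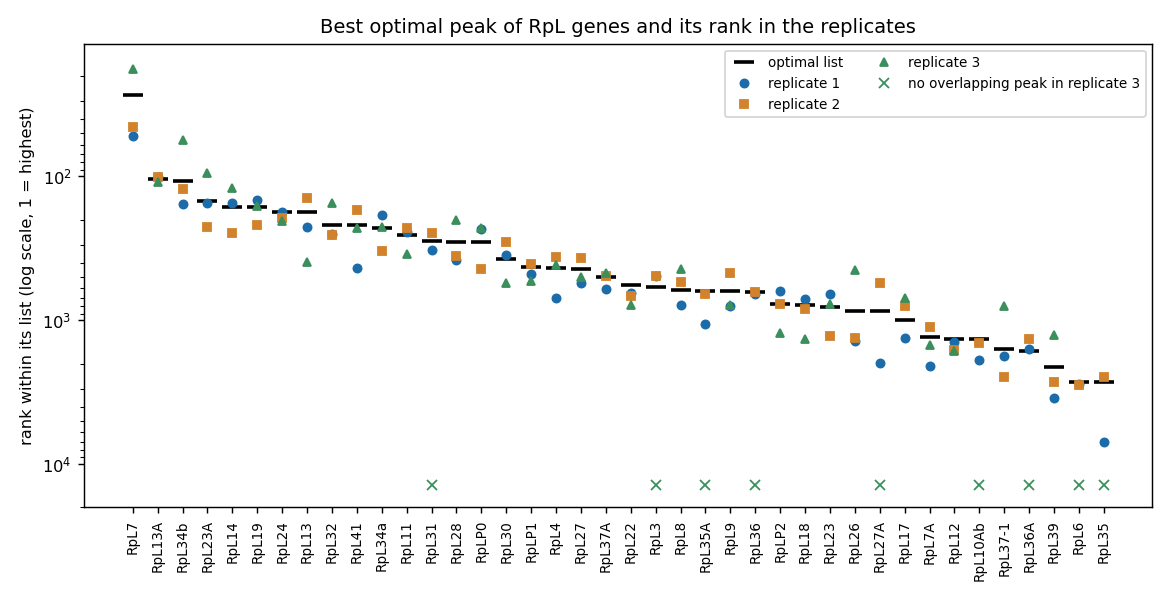
Rank (log scale, highest at the top) of the best optimal peak of 40 of the 41 RpL genes with one (black bar) and of the overlapping peak in replicates 1, 2 and 3 (points); a cross marks no overlapping peak in replicate 3. Ranks run from 27 at RpL7 to 2694 at RpL35, and 9 genes carry a cross.

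The highest peaks are taken first. RpL7 (FBgn0005593, 2L, 10201004 to 10202321, plus strand) had the highest, at rank 27, and ranked 52, 45 and 18 in replicates 1, 2 and 3; its summit lay 42 bp downstream of the start. RpL13A (FBgn0037351, 3R, 5624474 to 5625947, plus strand), at rank 104, ranked 101, 101 and 110, with the summit 65 bp upstream. These replicate ranks all lay within the highest 156 peaks of a replicate, as did those of RpL34b. RpL34b (FBgn0037686, 3R, 9400237 to 9401226, minus strand), at rank 108, ranked 156, 122 and 56, with its summit 106 bp upstream.

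RpL23A, whose product lies at the mouth of the exit tunnel where factors dock on the nascent chain, had an optimal rank of 149 and ranked 152, 226 and 95 in replicates 1, 2 and 3. RpL14 had an optimal rank of 162 and ranked 153, 249 and 121. RpL19 and RpL24 encode proteins that form bridges between the subunits. The RpL19 peak had an optimal rank of 163 and ranked 147, 216 and 160, and that of RpL24 had an optimal rank of 177 and ranked 176, 194 and 205. Summits at these 4 genes lay 74, 21, 16 and 22 bp upstream of the start, in that order. The libraries placed RpL24 within a narrow span of ranks, whereas replicate 2 placed RpL14 lowest and replicate 3 highest.

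RpL13 shares its promoter with Dref, the gene of the DRE-binding factor, which starts 84 bp away on the other strand. Its peak had an optimal rank of 178 and ranked 226, 141 and 395 in the replicates, with the summit 28 bp upstream of the RpL13 start. RpL32, also known as rp49 and widely used as a reference transcript, had an optimal rank of 218 and ranked 252, 256 and 152, with its summit 45 bp upstream. Across the genes described so far the summit was upstream of the start except at RpL7. RpL13 was not alone in having an opposite-strand start within 500 bp upstream. Such starts also lay at RpL7 (Ripalpha, 30 bp), RpL14 (Nelf-E, 127 bp) and RpL19 (CG3776, 131 bp). The same held at RpL34b (CG8132, 269 bp), RpL32 (CG7943, 309 bp) and RpL13A (Dph4, 349 bp), but not at RpL23A or RpL24. Which gene of such a pair a peak belongs to was not tested.

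The stalk genes all had peaks. RpLP0, the base of the stalk, had an optimal rank of 288 and ranked 232, 439 and 228 in replicates 1, 2 and 3. RpLP1 had an optimal rank of 424 and ranked 475, 404 and 534, and RpLP2, its partner, had an optimal rank of 777 and ranked 625, 777 and 1229. The order RpLP0, RpLP1, RpLP2 held in replicates 1 and 3, while in replicate 2 RpLP1 stood above RpLP0. Summits lay 22, 49 and 59 bp upstream of the starts. The peaks of RpLP1 and RpLP2 were narrow, 127 and 112 bp wide, and RpLP2 had another optimal peak, at rank 1386, 2055 bp upstream.

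Pairs of paralogues differed in whether both genes had a peak. RpL34b (rank 108) and RpL34a both had peaks; that of RpL34a had an optimal rank of 228 and ranked 185, 332 and 225 in the replicates, with the summit 99 bp upstream. RpL10Ab had an optimal rank of 1360 and ranked 1900 and 1436 in replicates 1 and 2 with no overlapping peak in replicate 3, while RpL10Aa had no optimal peak and its closest optimal summit was 50462 bp away. RpL37-1 had an optimal rank of 1593 and ranked 1766, 2486 and 791, while RpL37-2 had no optimal peak and the closest optimal summit was 28059 bp away. None of the 4 genes named as "like" a member had an optimal peak nearest to it. They are RpL22-like, a relative of RpL22, and RpL7-like, RpL24-like and RpLP0-like, whose yeast relatives act in assembly of the large subunit and are not part of the finished ribosome. The namesakes RpL22, RpL24, RpL7 and RpLP0 had peaks at ranks 567, 177, 27 and 288. At RpLP0-like an optimal summit, at rank 2356, did lie 67 bp from the start but was assigned to 14-3-3zeta, 20 bp away. Without the 4 "like" genes, 41 of 50 RpL genes (82%) had an optimal peak assigned.

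Replicates also differed in where they placed a gene. Among the 32 genes with a rank in all 3 libraries, the widest ratio between the ranks of 2 replicates was 3.16, at RpL26, which ranked 1405, 1336 and 444 in replicates 1, 2 and 3. RpL37-1 followed with a ratio of 3.14, and then RpL7 with 2.89. In each of these replicate 3 gave the highest placement.

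Summits at RpL starts lay close to the start, and the peaks were narrow. The 40 RpL genes whose best peak was within 500 bp of the start (RpL6 is the other) were set beside the 1917 optimal peaks that lay within 500 bp of a start of other genes. The sides were chosen unlike: only the best peak of each RpL gene, but every such peak of other genes, lower ones included. Lower peaks at RpL27A (rank 2234, 177 bp), RpL3 (rank 3228, 198 bp) and RpL6 (rank 3242, 14 bp) were thus left out. The effect of this choice on the values below was not tested. RpL summits lay a median of 22 bp from the start (quartiles 12.5 and 59.5), and those of the other genes 129 bp (72 and 235). With the 5′-most start of each gene alone, the medians within 500 bp were 36.5 bp at RpL genes (n = 40) and 124 bp at the others (n = 1527). Within 50 bp of the start lay 29 RpL summits (72.5%) and 326 other summits (17.0%). The summit was upstream at 31 RpL genes and downstream at 9, and upstream at 1512 and downstream at 397 other peaks. The difference in position was thus one of distance, with a signed median of -22 bp at RpL genes and -110 bp at the others, rather than of the side: 22.5% of RpL summits and 20.7% of other summits were downstream.

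Median peak width was 283 bp at RpL genes and 450 bp at the other promoter peaks. A width of 450 bp, the most common in the list, was found for 10 RpL peaks (25%) and 1465 other peaks (76.4%). Between the optimal list and a replicate the summit moved by a median of 9, 10.5 and 16.5 bp in replicates 1, 2 and 3 at RpL genes, and by 20, 16 and 30 bp at the others. Support by all 3 replicates was found for 32 of these 40 RpL peaks (80%) and for 1086 other promoter peaks (56.6%). Rank went along with this: the median was 472 at RpL genes and 1682 at the others. The part of rank in the closer and narrower peaks was not tested.

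**Figure D2:**
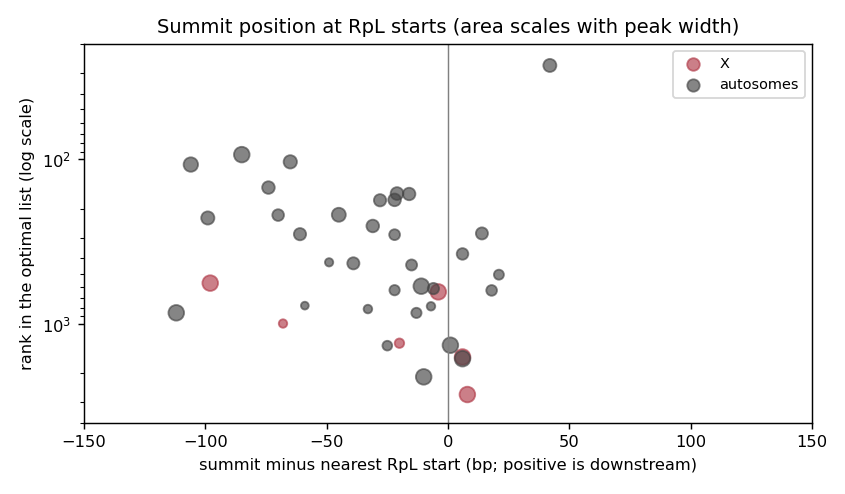
Summit position relative to the nearest RpL start (bp, positive downstream) against rank in the optimal list (log scale, highest at the top) for the 40 RpL genes with the best peak within 500 bp; point area scales with peak width and colour separates X-linked from autosomal genes. Of the points, 31 lie left of the start and 9 right of it, and the 6 X-linked ones begin at rank 567.

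Replicate 3 lacked a peak at some strongly ranked RpL genes. At 9 of the 41, no peak anywhere in its relaxed list of 30000 overlapped the optimal peak. In order of optimal rank these were RpL31 (283), RpL3 (592), RpL35A (626), RpL36 (641), RpL27A (860), RpL10Ab (1360), RpL36A (1632), RpL6 (2675) and RpL35 (2694). RpL3, a protein near the peptidyl transferase centre, ranked 491 and 489 in replicates 1 and 2, and RpL36 ranked 655 and 633. RpL31, at the exit tunnel, ranked 323 and 248, and the nearest summit of replicate 3 lay 1800 bp away. At the other 8 genes that distance was between 5033 and 25623 bp.

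The same absence was common elsewhere in the list. Of the 40 RpL peaks within 500 bp of the start, 8 (20%) had no overlapping peak in replicate 3, as did 327 of the 1917 other promoter peaks (17.1%) and 501 of all 3688 optimal peaks (13.6%). Among the highest 737 optimal peaks, 4 of 27 RpL peaks were missing in replicate 3, where 5.70% of all these 737 peaks were. What separates the 9 from the other 32 in this library was not tested.

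At the end of the list stood RpL6 and RpL35. The RpL35 peak, 8 bp downstream of the start, ranked 7058 in replicate 1 and 2473 in replicate 2, so of the replicates replicate 2 alone placed it among its 3688 highest. The best RpL6 peak lay 3887 bp upstream of the start; a lower one, at rank 3242, lay 14 bp downstream. Just outside, RpL38 and RpL15 had pooled peaks at ranks 5327 and 5933, 55 and 44 bp from their starts. The best peaks nearest to RpL38 ranked 5528, 4230 and 17859 in replicates 1, 2 and 3, and those nearest to RpL15 ranked 11149, 5967 and 2804. Replicate 3 thus held RpL15 above the length of the optimal list, with its summit 50 bp from the start, while the best peak of replicate 1 lay 2192 bp from it.

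The 13 RpL genes without an optimal peak were RpL5, RpL10, RpL10Aa, RpL15, RpL21, RpL22-like, RpL24-like, RpL29, RpL37-2, RpL38, RpL40, RpL7-like and RpLP0-like. At RpL29 and RpLP0-like an optimal summit did lie near the start. The peak ranked 2907 had its summit 75 bp from the RpL29 start and 47 bp from that of Sgf29, on the opposite strand, to which it was assigned. Likewise the peak ranked 2356 lay 67 bp from RpLP0-like and 20 bp from 14-3-3zeta. Counted by any summit within 500 bp, 43 of 54 RpL genes had a peak. The share of all genes under this looser rule was not counted, and the shares given above do not apply to it. Opposite-strand starts within 500 bp upstream were present at 22 RpL genes, of which 18 had a peak assigned, and absent at 32, of which 23 did. The same split was not counted over all protein-coding genes, so whether these counts are particular to RpL genes is not known. The other 4 of the 22 were RpL29, RpLP0-like, RpL24-like and RpL7-like, and the closest optimal summits to RpL24-like and RpL7-like were 4190 and 9780 bp away.

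Of the rest, 5 lay towards the centromere beyond the last optimal summit of their chromosome arm: RpL21 and RpL5 on 2L, RpL38 on 2R, and RpL10 and RpL15 on 3L. RpL5 binds the 5S ribosomal RNA, and RpL10 joins the subunit late in its maturation. From RpL15 (3L, 27267255 to 27268445) the closest optimal summit was 4388363 bp away and from RpL38 (2R, 4515388 to 4516458) 1266338 bp. The distance was 392291 bp at RpL5, 216579 bp at RpL10 and 103474 bp at RpL21. In all 148 protein-coding genes lay in these end stretches of 2L, 2R, 3L and 3R. The stretches were cut at the last optimal summit, so by definition no optimal summit could lie inside them. Of the 148 genes, 1 was the nearest gene of an optimal peak, assigned from outside. The relaxed pooled list did hold peaks there, nearest to 83 of the 148 genes and to 4 of the 5 RpL genes, RpL10 being the exception.

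Repeat content around these 5 genes was high. Within 10000 bp to each side of the start, 39.9% of the sequence at RpL38, 31.9% at RpL15, 29.1% at RpL10, 27.6% at RpL21 and 17.8% at RpL5 was repeat-masked in the reference. RpL genes with a peak had between 4.95 and 16.4%, with a median of 9.67%, and all genes had a median of 12.7% with a 95th percentile of 26.7%. All 5 thus stood above every RpL gene with a peak, and so did RpL10Aa at 31.5%. How the authors treated reads from repeats is not given in the sources used here, so repeat content, position on the arm and occupancy cannot be told apart. RpL40, made as a fusion with ubiquitin, was the remaining core member without a peak; its closest optimal summit lay 4606 bp away and 13.9% of its surroundings were masked.

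**Figure D3:**
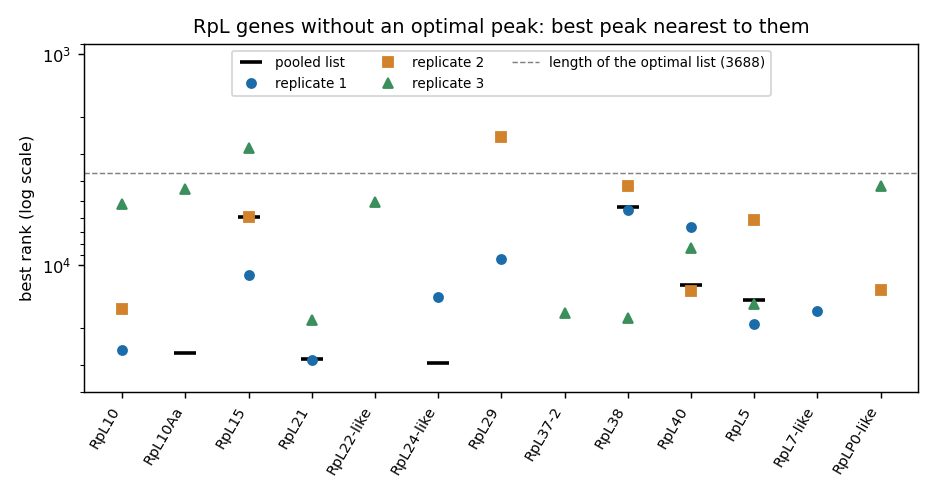
Rank (log scale, highest at the top) of the best peak nearest to each of the 13 RpL genes without an optimal peak, in the pooled list (black bar) and in replicates 1, 2 and 3 (points); the dashed line is the length of the optimal list, and a missing symbol means no peak nearest to that gene. RpL15 in replicate 3 (2804) and RpL29 in replicate 2 (2496) are above the line.

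By chromosome, all 6 X-linked RpL genes had an optimal peak, beside 18.7% of all genes on the X, and 35 of the 48 autosomal ones did, beside 18.8% of all autosomal genes. The X-linked peaks ranked lower: RpL22 (567), RpL36 (641), RpL17 (998), RpL7A (1314), RpL37-1 (1593) and RpL35 (2694) had a median rank of 1156, and the autosomal RpL genes had a median of 424 (27 to 2675). Other promoter peaks had median ranks of 1591 on the X (n = 287) and 1692 on the autosomes (n = 1630). The ranges of X-linked and autosomal RpL genes overlapped, and with 6 X-linked genes the median rests on few values.

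Short sequence motifs were then counted from 250 bases before to 50 after the canonical start of each gene, on both strands unless stated, with no match left out for overlapping another. CTTT on the gene's own strand with its first base within 5 bases of the start differed by the most percentage points among the motifs counted: 25 of 54 RpL genes (46.3%) held it and 5.72% of all protein-coding genes did. It was as frequent in RpL genes with a peak (19 of 41) as in those without (6 of 13, namely RpL21, RpL29, RpL37-2, RpL38, RpL40 and RpL7-like). Read at the start nearest the best summit instead, 19 of the 40 RpL genes with the best peak within 500 bp held CTTT, as many as at the canonical start, with 15 genes in common. RpL18, RpL27A, RpL32 and RpLP0 held it there alone, and RpL13, RpL24, RpL30 and RpL36 at the canonical start alone. The usual initiator TCAGT at the same place was found at 0 RpL genes and at 11.3% of all genes.

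The DRE sequence TATCGATA was present at 15 RpL genes (27.8%) and 8.94% of all genes. It stood at 13 of the 41 with a peak and at 2 of the 13 without, RpL24-like and RpL7-like. Motif 1, GGTCACACT, was present at 6 RpL genes (11.1%) and 5.87% of all genes. Those 6, RpL7, RpL19, RpL27, RpL27A, RpL37A and RpLP1, all had peaks; RpLP0 held it before the start nearest to its summit, shown above, but not in the window of its canonical start.

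**Figure D4:**
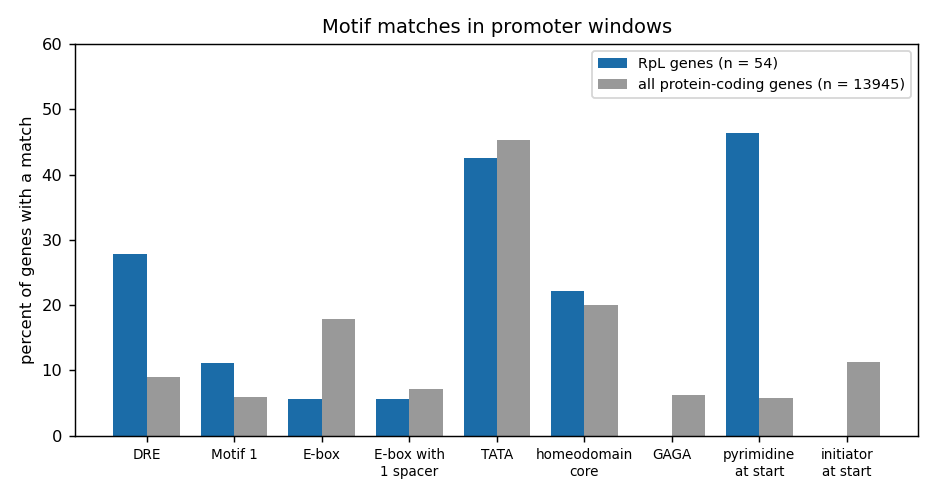
Percent of RpL genes (n = 54) and of all protein-coding genes (n = 13945) with a match to each motif in the promoter window, or at the start for the last pair; E-box stands for CAGCTG, E-box with 1 spacer for CAGCNCTG, the homeodomain core is TAATTA, the pyrimidine motif CTTT and the initiator TCAGT. The pyrimidine motif (46.3% and 5.72%) and the DRE (27.8% and 8.94%) are higher at RpL genes.

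TAATTA, the core recognised by many homeodomains, was present at 12 RpL genes (22.2%) and 20.04% of all genes. With the window opened at 100 bases before the start, 1 RpL gene remained (RpL23, first base at -66), 1.85%, beside 6.73% of all genes. The other 11 matches lay farther upstream, at -104 to -220; of these 11 genes, RpL10Aa, RpL29, RpL40 and RpLP0-like had no optimal peak assigned. TATAAA followed the same course, with 23 RpL genes (42.6%) and 45.3% of all genes in the long window and 5 RpL genes (9.26%) and 23.7% of all genes in the short one. GAGAGAG was present at 0 RpL genes and 6.20% of all genes, CAGCTG at 3 (5.56%) and 17.9%, and CAGCNCTG at 3 (5.56%) and 7.18%. A match in these letters is no measure of binding by the factor named with it.

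RpL genes were last placed beside the other genes of ribosome production. An optimal peak stood at 41 of 54 RpL genes, with a median best rank of 504, and at 29 of 39 small-subunit RpS genes (74.4%), with a median of 884. The RpL summits lay a median of 22 bp from the start, and the RpS summits 16 bp. Narrow peaks were common to both: the best peak had a median width of 288 bp at RpL genes and 304 bp at RpS genes. Over all genes with an optimal peak it was 450 bp. Support by all 3 replicates was found at 32 RpL and 20 RpS genes. Promoters of the RpS genes held CTTT at the start in 17 of 39 cases and the DRE in 13. By contrast the mitochondrial ribosomal protein genes, whose products serve the separate ribosome of the organelle, had peaks at 8 of 47 mRpL and 3 of 26 mRpS genes, together 15.1%. mRpL41 (rank 5) nonetheless stood above every RpL gene, and mRpL23 (rank 109) among the first of them; both were singled out after their ranks had been seen.

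The 17 assembly factors process ribosomal RNA or help to make the subunits. Beside 18.8% of all genes, 5 of the 17 (29.4%) had an optimal peak nearest to them. These were eIF6 (rank 53), which keeps the large subunit from joining early, Ns1 (506, its summit 7245 bp from the start), nop5 (608), NHP2 (2081) and Nnp-1 (2419). The gene groups share the same libraries and list, and no test of their difference was made.

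**Figure D5:**
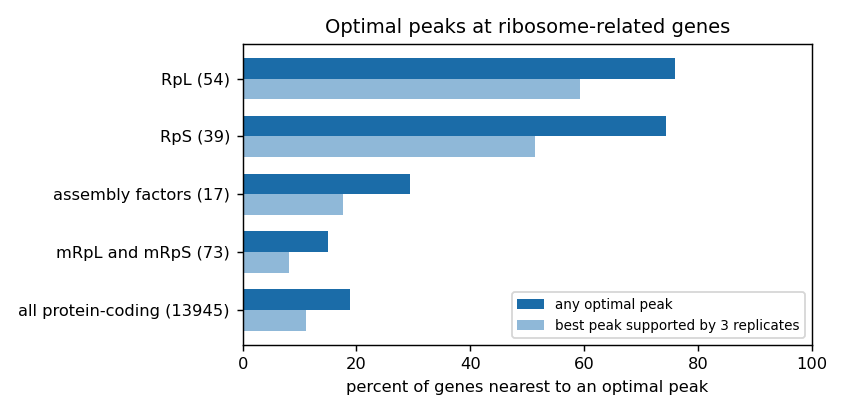
Percent of genes nearest to any optimal peak (dark bars) and with a best peak supported by all 3 replicates (light bars) for RpL, RpS, assembly-factor and mitochondrial ribosomal protein genes and for all protein-coding genes, with group sizes in brackets. RpL (75.9%) and RpS genes (74.4%) stand near each other, and mitochondrial genes (15.1%) are close to all genes (18.8%).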

How the data were processed

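Anti-GFP ChIP-seq peak lists of 3 biological replicates (replicate numbers from the labels' description) were used in their dm6 form. Age was taken from the source name. Chromatin was sonicated to 200 to 800 bp, per the labels. Per the notes deposited with each library, each relaxed list was made from alignments as input to the IDR step, per replicate and for the 3 replicates pooled; the replicate lists had 1 further input that is not described. The sources used here do not give the aligner, caller or IDR threshold. The authors' deposited signal value (scale not stated) gave each peak's rank inside its own list and nothing else. The −log10 q values that the authors deposited are not reported. Depth is unknown, as the files hold no read counts. The optimal list's 3679 distinct intervals were the highest pooled ones, with 9 repeats, all kept.

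Summits (1-based) were assigned to the nearest annotated start of BDGP 6.54 protein-coding genes (Ensembl 115), keeping all ties, with Python 3.11.15, pandas 2.3.3 and numpy 2.4.6. Assignment, overlap and windows were checked on simulated data. With 1 group and no control, counts, medians and ranks are descriptions without tests. Members, lists and motifs were chosen with earlier results of these data known. Named were all members without an optimal peak, the 10 highest (1 of these is not reported here), stalk genes, pairs, the 3 widest rank ratios and the genes nearest the list's end. Ties, canonical starts for motifs, the printed window, arm ends, repeat content, X against autosomes and distances in replicate 3, and CTTT at the start nearest the summit, were chosen after seeing the data.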

Additional observations from a re-analysis of the deposited data

How the results depend on the processing

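Counts of RpL genes with a peak, or with a peak supported by all 3 replicates, stayed within 1.5 times the main value under every alternative run. The 41 genes with an optimal peak became 32 to 40 when each replicate was left out, which here means keeping optimal peaks supported by both other replicates, so the count could only fall while the list was still called from all 3 libraries. Leaving out replicate 1 or 2 removed the 9 genes absent from replicate 3, and leaving out replicate 3 removed RpL35. The median best rank of 504 then ran from 400.5 to 472, and at 400.5 it moved by more than the spread between replicates (SD 71.9 over the replicates' own lists). The median distance of 22 bp became 39 bp when the 5′-most start of each gene alone was used, against an SD of 10.2 bp. Starts of every biotype gave 40 genes, without RpL22, and both gene-proximity rules gave 43, adding RpL29 and RpLP0-like. The share of all genes was not counted under these rules. Support by all 3 replicates fell to 27 genes with an overlap of at least 50%. In the shorter motif window TATAAA fell to 5 and TAATTA to 1 RpL gene, and mitochondrial genes fell to 4 in the higher 1844 peaks. The medians of 400.5 and 39 bp and these last 3 counts moved by more than the replicate SD or 1.5 times, and the other 34 alternative values did not; among these, GGTCACACT (6 to 4) and CAGCNCTG (3 to 2) lay at 1.5 times. No paired analysis was possible because there is 1 group and no comparison between groups. Depth is unknown, so an absent peak is not shown to be absent binding.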
